A study of Drosophila melanogaster with 2 samples.

Results

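The mitochondrial ribosomal protein genes of Drosophila melanogaster were described in a chromatin immunoprecipitation and sequencing (ChIP-seq) experiment on the zinc finger factor encoded by CG17829, which RefSeq names Hinfp. They were chosen as the protein-coding genes whose symbol starts with mRpL or mRpS in the Ensembl annotation of the dm6 assembly. The rule found 73 of 13945 protein-coding genes, of which 47 carried the mRpL prefix of the large subunit and 26 the mRpS prefix of the small subunit. A gene was called bound where the summit of a peak, the base of highest signal, lay within 250 bp of one of its annotated transcription start sites. The rule used names and positions and no measured value, and the group itself was proposed with earlier results of these data known. Of the 73, 67 had 1 annotated start and 6 had more.

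Chromatin came from whole embryos 0 to 24 h old, male and female together, of a transgenic line that stably expressed the CG17829 protein with green fluorescent protein (eGFP) fused to its C-terminus, and the sample description names an antibody against GFP, while another label field gives CG17829 as the antibody. There was 1 group with 2 biological replicates, which the labels number 4 and 2, and no second genotype, treatment or age, so every comparison below sets these genes beside other genes of the same lists. Embryos of all stages and tissues were pooled in each library, so a peak is an average over cell types, and no source used here gives the promoter that drives the transgene. The peaks of the control libraries that the labels point to were not analysed here.

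Mitochondrial ribosomes translate the messenger RNAs of the mitochondrial genome, which encode core subunits of the respiratory chain and of ATP synthase. Their RNAs are made inside the organelle, but all of their proteins are encoded in the nucleus, translated in the cytosol and imported, so the promoters described here are nuclear. The large subunit joins amino acids into chains and the small subunit reads the message. The vertebrate relative of the tagged factor, HINFP, is best known as a regulator of histone H4 genes.

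The deposited lists held 7915 peaks that passed the authors' reproducibility threshold (the irreproducible discovery rate, IDR), 30000 peaks called on the pooled replicates and 30000 peaks in each replicate list. All 7915 IDR peaks stood in the pooled list with the same interval and signal, and they were its 7915 strongest peaks, so the IDR threshold acted as a limit of 138 on the pooled signal. The signal is the authors' own value per peak on a scale that the files do not define. It serves here for order within 1 list, with rank 1 as the strongest. Read depth is unknown from these files. Exact Clopper-Pearson 95% intervals are given beside shares of genes, and they cover counting error only.

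The sequences under the strongest peaks of this gene group are shown first because they share a feature that the choice of genes did not use. Of the bound genes on 2L, 3L, 3R and X, 24 had a window of 50 bases to each side of the strongest IDR summit that touched no annotated exon. The 6 strongest of these follow, read from the RefSeq genome of the same assembly in the direction of the gene, with uninterrupted runs of at least 6 A or T in capitals.
mRpS10, chr3R:15229485-15229585 (+ strand): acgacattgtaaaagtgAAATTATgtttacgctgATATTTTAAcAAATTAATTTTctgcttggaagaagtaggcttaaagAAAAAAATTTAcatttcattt
mRpL24, chr2L:4945443-4945543 (- strand): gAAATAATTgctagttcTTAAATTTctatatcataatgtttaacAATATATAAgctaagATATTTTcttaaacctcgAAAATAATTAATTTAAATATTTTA
mRpS2, chr2L:4850497-4850597 (- strand): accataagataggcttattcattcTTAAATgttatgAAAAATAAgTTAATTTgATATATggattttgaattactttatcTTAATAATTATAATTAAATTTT
mRpS21, chr3R:13381877-13381977 (- strand): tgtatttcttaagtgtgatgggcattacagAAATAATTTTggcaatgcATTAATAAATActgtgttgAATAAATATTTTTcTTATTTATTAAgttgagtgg
mRpL37, chr3R:10784205-10784305 (- strand): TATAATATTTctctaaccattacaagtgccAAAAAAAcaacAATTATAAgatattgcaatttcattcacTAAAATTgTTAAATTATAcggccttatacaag
mRpL32, chr3R:31252716-31252816 (+ strand): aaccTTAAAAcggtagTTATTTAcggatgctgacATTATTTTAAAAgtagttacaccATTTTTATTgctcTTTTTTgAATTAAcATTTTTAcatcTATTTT
Between 74.3% and 83.2% of the bases in these 6 windows were A or T. The weakest 3 of the 24 windows are given for contrast.
mRpL9, chr3R:15330612-15330712 (+ strand): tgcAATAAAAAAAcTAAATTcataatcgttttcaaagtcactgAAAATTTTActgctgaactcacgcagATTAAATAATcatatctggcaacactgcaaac
mRpL17, chr3L:264646-264746 (+ strand): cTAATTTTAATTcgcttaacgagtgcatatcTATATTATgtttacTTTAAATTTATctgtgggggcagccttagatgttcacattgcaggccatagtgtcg
mRpL40, chr3R:11407801-11407901 (+ strand): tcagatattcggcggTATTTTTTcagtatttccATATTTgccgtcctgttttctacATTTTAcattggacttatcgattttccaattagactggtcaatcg
They held 63.4% to 69.3% A and T.

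Most promoters of mitochondrial ribosomal protein genes had a peak within 250 bp. In the IDR list 49 of the 73 genes had a promoter summit, 67.1% (interval 55.1% to 77.7%), where 31.7% of all protein-coding genes did. In the pooled list the count was 65 genes (89.0%), against 48.9% of all protein-coding genes. The replicate 4 list held 63 (86.3%), where 48.5% of all protein-coding genes were called, and the replicate 2 list held 66 (90.4%), where 49.3% were. Both replicate lists held a promoter summit for 62 genes (84.9%), against 44.3% of all protein-coding genes. Replicate 4 alone held 1 more gene and replicate 2 alone 4 more, and 6 genes had a promoter summit in neither. With a limit of 100 bp the IDR share was 30.1%, against 18.2% of all protein-coding genes, and where the summit's nearest start had to be the gene's own it was 38.4%, against 25.1%. No test of these differences was made, since the genes were picked with earlier results of these data known and there is no second condition.

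In the IDR list, genes with the mRpL prefix were bound in 35 of 47 cases (74.5%, interval 59.7% to 86.1%). Those with the mRpS prefix were bound in 14 of 26 (53.8%, interval 33.4% to 73.4%). This split follows the symbol alone, which need not give the subunit of every protein. The 2 intervals overlap. Proteins of bacterial families, by the number in the symbol together with mRpL47, mRpS24 and mRpS28, which have bacterial relatives under other numbers, had 32 of 45 genes bound (71.1%), and proteins that only mitochondria have had 17 of 28 (60.7%). Both splits left bound and unbound genes in each class.

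The strongest peak of the group lay at the promoter of mRpS10, a protein of the small subunit's head, and was rank 6 of all 7915 IDR peaks. It spanned chr3R:15229300-15229775 with its summit 130 bp upstream of the start, and had a signal of 3905 in the pooled data, 1790 in replicate 4 and 2130 in replicate 2, where it was rank 6 in both. The gene shares this promoter with Art3, an arginine methyltransferase gene on the other strand whose start lies 127 bp from the same summit. The next was mRpL41, a mitochondria-specific protein of the large subunit, at rank 38, with ranks 43 in replicate 4 and 37 in replicate 2. It had no protein-coding partner within 250 bp of the summit. mRpL23 and mRpL24, proteins at the exit of the tunnel through which the new chain leaves the large subunit, followed at ranks 77 and 150. The signal of mRpL23 was 851.2 in replicate 4 and 978.2 in replicate 2, and that of mRpL24 was 633.4 in replicate 4 and 786.6 in replicate 2. mRpS2, a small-subunit protein of a bacterial family, was at rank 237 with ranks 247 in replicate 4 and 232 in replicate 2. These 5 genes stood apart from the others, since the sixth, mRpS21, was at rank 834.

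From mRpS21 on, ranks were spread through the list. mRpL37 was at rank 874, mRpL32 at 1000, mRpL34 at 1422, mRpL47 at 1423, mRpS31 at 1431 and mRpS6 at 1533. mRpL4, mRpL39, mRpL11, mRpS16, mRpL13, mRpS26, mRpL16 and mRpS7 filled the places of the 20 strongest, at ranks between 1575 and 2312. Over all 49 bound genes the median rank was 3181, with the weakest, mRpL40, at rank 7914, which is next to the last of the list. The median rank of the strongest promoter summit of the other 4367 bound protein-coding genes was 3640. Ranks 1 to 1978 held 16 of the group's genes (32.7%), against 27.5% of the other bound genes, and ranks 5937 to 7915 held 6 (12.2%), against 19.8%.

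The ranks of the bound genes were then set side by side between replicates. All 49 had a promoter summit in both replicate lists, which the IDR threshold nearly fixes, since 98.9% of all IDR peaks overlapped a peak of both lists. Over the 49, the log10 signal of one replicate followed the other with Spearman's rho of 0.790 and Pearson's r of 0.889, given as descriptions of genes that share their libraries. The summits of the replicates lay a median of 20 bp apart and within 50 bp of each other in 41 genes. Ranks differed by less than 1.5 times in 41 genes and by more than 2 times in 5, which were mRpL17, mRpL34, mRpS7, mRpL18 and mRpS11. When, in a pairing added after seeing the data, each gene's own IDR summit was paired with the nearest summit of each replicate, rho was 0.805, r was 0.893, and mRpL17, mRpS7, mRpL18 and mRpS11 still differed by more than 2 times. The largest gap was at mRpL17, at rank 21101 with a signal of 23.68 in replicate 4 and rank 3362 with a signal of 150.2 in replicate 2. At mRpL34 the strongest summits within 250 bp of the start, of rank 1312 in replicate 4 and 5370 in replicate 2, lay 159 bp apart and were different summits, and the replicate 2 peak nearest to the IDR summit was of rank 1609. At mRpS22 the strongest summits, of rank 3250 in replicate 4 and 2694 in replicate 2, lay 161 bp apart and were also different summits. The replicate 4 peak nearest to its IDR summit was of rank 2588. mRpS26 differed by more than 2 times in the second pairing only, where its summits lay 198 bp apart.

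**Figure D1:**
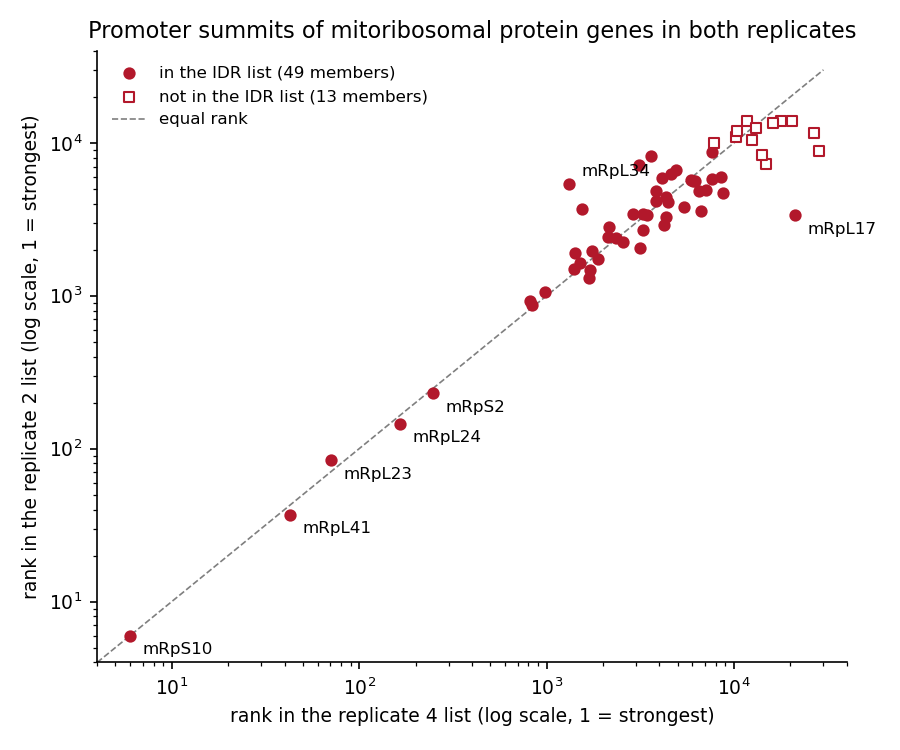
Rank of the strongest promoter summit of each gene in the replicate 4 list (horizontal) and the replicate 2 list (vertical), both on log axes with 1 as the strongest. Filled circles are the 49 genes with an IDR promoter summit, open squares the 13 other genes found in both lists, and the dashed line marks equal ranks. mRpS10, mRpL41, mRpL23, mRpL24 and mRpS2 sit alone at the strong end, and mRpL17 lies farthest from the line among the filled circles. The points of mRpL34 and mRpS22 each pair 2 different summits.

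Structural neighbourhoods of the ribosome held few genes each, so their intervals are wide and overlap. They are given as counts beside the 67.1% of the whole group and the 31.7% of all genes. The sets are fixed lists by symbol that are not complete, and the place of each protein was not checked against a structure. All 6 genes of the platform list, mRpS6, mRpS11, mRpS18A, mRpS18B, mRpS18C and mRpS21, had an IDR promoter summit (interval 54.1% to 100%), with ranks between 834 and 5452. Of the 7 genes in the head list only mRpS7, mRpS10 and mRpS31 did, while mRpS9, mRpS14, mRpS29 and mRpS33 did not. In the central protuberance, where the large subunit touches the head, mRpL18, mRpL27, mRpL40, mRpL48 and mRpL52 were bound and mRpL38 and mRpL46 were not, 5 of 7. At the tunnel exit mRpL23, mRpL24 and mRpL47 were bound and mRpL22 and mRpL45 were not, 3 of 5. In the stalk that recruits translation factors, mRpL10 and mRpL11 were bound and mRpL12 was not, 2 of 3. The genes of 1 structure thus ranged from among the strongest peaks to below the threshold, as in the head with mRpS10 at rank 6.

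Most genes without an IDR promoter summit had a weaker one. Of the 24, 16 had a promoter summit in the pooled list, at ranks from 8190 to 20747 with a median of 12597. The closest to the threshold were mRpL3, whose bacterial relative reaches toward the peptidyl transferase centre, at pooled rank 8190, mRpL12 at 9551, mRpL14 at 9597, mRpS14 at 10413, mRpL22 at 10788 and mRpL36 at 10944. mRpL49 was at 11797, mRpL45 at 11943, mRpS5 at 13251, mRpS34 at 14151, mRpS35 at 14459, mRpL38 at 14854, mRpL30 at 15237, mRpS30 at 16584, mRpS25 at 19639 and mRpS33 at 20747. The other 8 had no pooled promoter summit, and of these mRpL46 and mRpS9 were in the replicate 2 list alone, at ranks 14035 and 9519.

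The remaining 6, which neither replicate list held, all had an IDR summit 258 to 418 bp upstream of their start. For each of them the nearest protein-coding start belonged to another gene. mRpS23, a mitochondria-specific small-subunit protein, lay 380 bp from the peak of rank 23, whose summit was 112 bp from the start of CenG1A, and that peak was rank 24 in replicate 4 and 25 in replicate 2. mRpL20, at 258 bp, lay beside the peak of rank 604 near Icmt, and mRpS17, at 277 bp, beside that of rank 2448 near Nop60B. mRpS24 was 310 bp from a summit near Apc2, mRpL33 was 343 bp from one near norpA, and mRpS29, a GTP-binding protein known in vertebrates as DAP3, was 418 bp from one near rad50. Just inside the limit, the nearest IDR summit lay 200 bp from mRpL44, 221 bp from mRpS31 and 235 bp from mRpL34. The limit of 250 bp, and not the lack of a nearby peak, put these 6 among the unbound.

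Divergent promoters were common in this group. A protein-coding gene that started upstream on the opposite strand within 500 bp stood at 53 of the 73 genes (72.6%), against 27.1% of other protein-coding genes. With such a head-to-head partner, 42 of 53 genes were bound (79.2%, interval 65.9% to 89.2%), against 62.1% of the other protein-coding genes with a partner. Without one, 7 of 20 were bound (35.0%, interval 15.4% to 59.2%), against 20.1% of the other genes without one. The split by partner was chosen after values had been seen, and its effect on the count of bound genes was not tested. The 42 bound pairs had starts a median of 220 bp apart, with a range of 20 to 462 bp.

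A summit in such a promoter cannot be given to 1 gene. Another protein-coding start lay within 250 bp of the strongest summit of 37 of the 49 bound genes (75.5%, interval 61.1% to 86.7%), against 2051 of the 4367 other bound protein-coding genes and 26.9% of the bound cytosolic ribosomal protein genes. The partner's start was nearer to the summit in 22 of the 37, the ribosomal protein gene's in 14, and 1 was equally far from both. Among the partners were other genes of mitochondria. mRpL35 shared its summit with Mitofilin, a gene for a protein of the inner membrane's folds, with starts 160 bp and 32 bp from it, and mRpL55 with ATPsynD, a subunit gene of ATP synthase, with starts 77 bp and 18 bp away. mRpL11 shared one with HtrA2, a mitochondrial protease gene, and mRpL18 with Taz, a gene for cardiolipin remodelling. Others worked elsewhere in the cell, as Cdk1 beside mRpS7, the kinase gene that drives entry into mitosis, Prosbeta2 beside mRpL39, a proteasome subunit gene, and trr beside mRpL16, a histone methyltransferase gene.

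X-linked genes of the group were nearly all below the IDR threshold. Only mRpL16 of the 11 genes on X was bound (9.09%, interval 0.230% to 41.3%), against 48 of the 62 on the autosomes (77.4%, interval 65.0% to 87.1%). With the list built without replicate 2, or with 500 bp as the limit, the X share was 18.2%, and with 100 bp it was 0. In the pooled list the shares were 10 of 11 on X and 55 of 62 on the autosomes, so most X-linked promoters of the group had a peak below the threshold. The pooled list held 55.8% of other protein-coding genes on X and 47.4% of those on the autosomes. The other 10 X-linked genes were mRpL3, mRpL14, mRpL22, mRpL30, mRpL33, mRpL38, mRpL49, mRpS14, mRpS25 and mRpS30, of which 9 had pooled summits at ranks from 8190 to 19639. Of other protein-coding genes, 630 of 2185 were bound on X (28.8%) and 32.0% on the autosomes, and 13 of 14 cytosolic ribosomal protein genes on X were bound. Over all promoter summits the median signal was 220.2 on X and 241.8 on the autosomes in the IDR list, and 105.3 and 136.8 in the pooled list. The mitoribosomal S12 gene tko, also on X but outside the prefixes, had an IDR promoter summit at rank 3553. The split by chromosome was chosen after values had been seen, with no test, and the part of the lower X signal in the count was not tested. Of the X-linked genes, 7 had a head-to-head partner, and mRpL16 was among them.

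**Figure D2:**
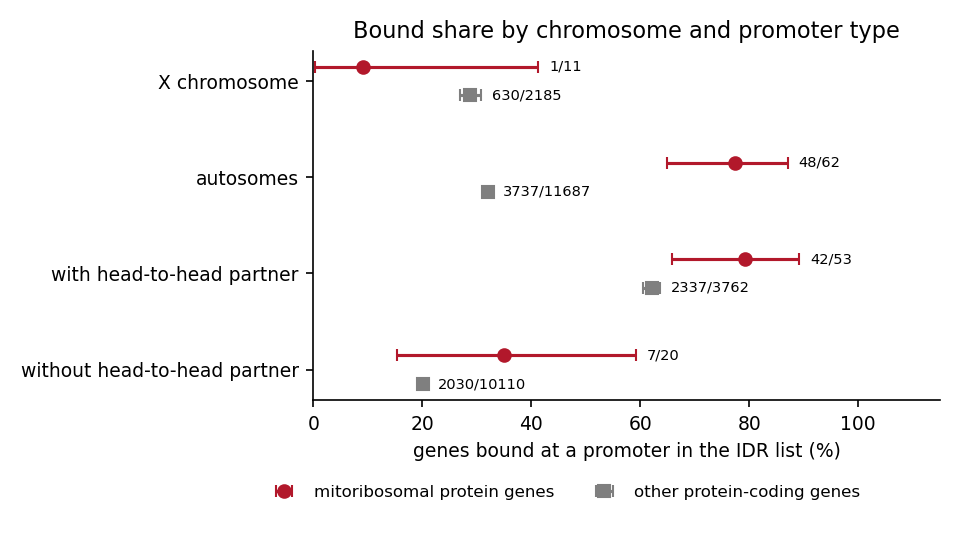
Share of genes bound at a promoter in the IDR list (percent, horizontal), for mitochondrial ribosomal protein genes (circles) above other protein-coding genes (squares), split by chromosome and by whether an opposite-strand start lies upstream within 500 bp. Bars are exact 95% intervals and the fractions give bound and all genes, with 1 of 11 on X and 42 of 53 with a partner among the ribosomal protein genes.

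Most summits lay upstream of the start, as at other bound genes (quartiles 132 and 67 bp upstream, against 147 and 30 bp). The strongest IDR summit lay a median of 106 bp upstream of the gene's start, and it was upstream in 44 of 49 genes (89.8%), close to the 86.0% of other bound protein-coding genes. Between 60 and 200 bp upstream lay 35 of the 49 (71.4%, interval 56.7% to 83.4%), against 52.3% of the other bound protein-coding genes and 33.3% of the bound cytosolic ribosomal protein genes. This span was not set in advance, and it holds both quartiles of the group, so the gap is a description only. The median was 86 bp upstream in the other bound genes and 38 bp upstream in the cytosolic ones. Only 5 summits were downstream, among them that of mRpL23 at 51 bp. Genes without a partner within 250 bp of the summit, 12 in all, had a median of 91 bp upstream.

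**Figure D3:**
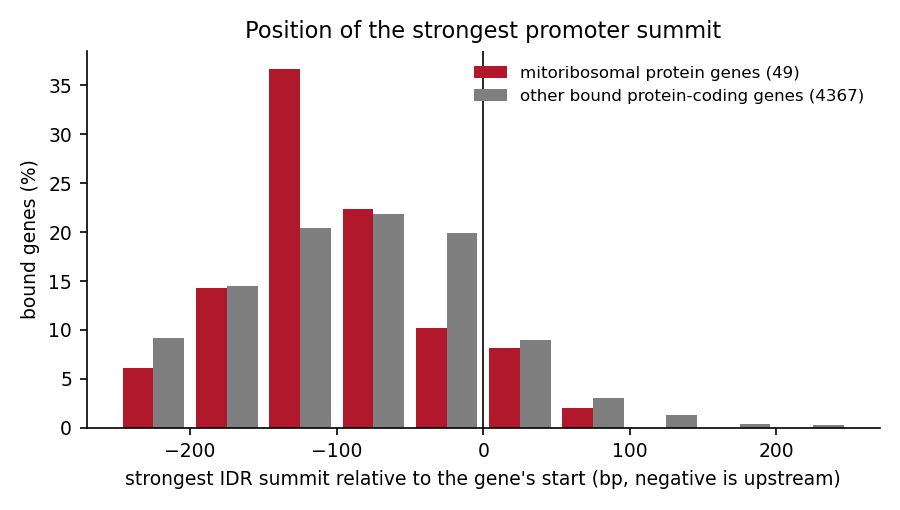
Position of the strongest IDR promoter summit relative to the start of the gene (bp, negative is upstream) as percent of bound genes, in bins of 50 bp, for 49 mitochondrial ribosomal protein genes (left bar of each pair) and 4367 other bound protein-coding genes (right bar). The bin from 150 to 100 bp upstream held 36.7% of the ribosomal protein genes and 20.4% of the others.

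Most summits of this group lay in AT-rich sequence. The printed windows do not stand for all 49 genes, since windows that touched an annotated exon were left out. The effect of that choice on base composition was not tested. The printed windows held 63.4% to 83.2% A or T, where all 49 ranged from 41.6% to 83.2%. Among the lowest were mRpS16 at 41.6%, mRpL53 and mRpL18 at 43.6% and mRpL48 at 45.5%, none of them printed. Within 50 bases to each side, the bases were a median of 69.3% A or T over the 49 genes, with quartiles at 60.4% and 75.2%, and 47.5% in the windows centred 500 bp away on either side. At the strongest summits of 3319 other bound promoters the median was 63.4%, with 52.5% in their flanking windows, and at 78 cytosolic ribosomal protein summits it was 55.4%. The summit window was richer in A and T than both of its flanks in 38 of 49 genes (77.6%), against 56.6% of the other promoters. The flanks were placed by distance alone and not matched for exons or partner genes. A head-to-head partner within 500 bp stood at 72.6% of the whole group and 27.1% of other genes, and its part in the flank values was not tested. All chromosome arms together were 57.8% A or T. Base composition was counted after AT-rich words of several lengths had been seen at the strongest peaks of the list and in the windows of this group.

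Stronger peaks of the group had more A and T in the median. Among the 16 strongest of the bound genes the median was 75.2%, among the 17 in the middle 70.3% and among the 16 weakest 61.9%, and the 16 genes below the threshold with a pooled promoter summit had 60.9%. Over the 49 genes Spearman's rho between the A and T share and log10 signal was 0.467 and Pearson's r 0.424, and over the other promoters rho was 0.345, both given as descriptions across summits that share libraries and base composition. Among the other promoters the 1106 strongest had a median of 70.3% and the 1106 weakest 59.4%. mRpL47, at rank 1423 with 55.4%, was an exception among the 10 strongest genes. Also among the 16 strongest, mRpS16 at rank 1842 had 41.6%, the lowest share of all 49. The part of base composition in the signal was not tested. The promoter windows from 250 bases before to 50 after the start did not separate bound from unbound genes, with medians of 64.0% and 66.7%.

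**Figure D4:**
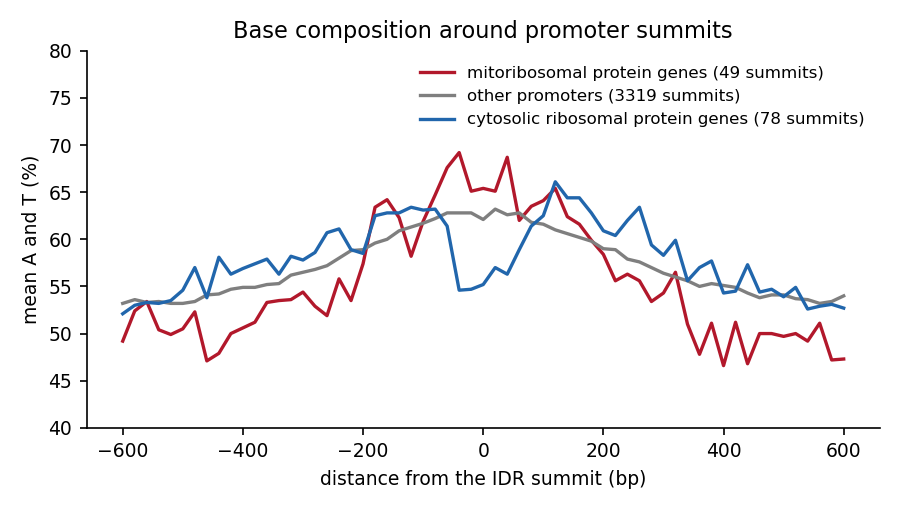
Mean share of A and T (percent, in windows of 21 bases) by distance from the IDR summit (bp, in genome direction) for 49 mitochondrial ribosomal protein summits, 3319 other promoter summits, which include the cytosolic ones, and 78 cytosolic ribosomal protein summits. The vertical axis starts at 40%. The line of the mitochondrial ribosomal protein genes is highest beside the summit and lowest toward the ends, and the cytosolic line dips at the summit.

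The 8-mers that lead the IDR list elsewhere were seldom within 50 bp of these summits. Among the 7851 IDR peaks whose summit lay over 1000 bp from every start of this group, the 8-mers with the largest ratio of summit windows to flanking windows were GGTCACAC at 13.7, TATCGATA at 12.3, ATCGATAG at 11.1, TGGTCACA at 9.17 and CGGTCACA at 8.80, each counted with its reverse complement. The first is the core promoter element called Motif 1, bound by M1BP, and the second is the DRE, bound by DREF, and the other 3 overlap one of these. Any of them was in the summit window of 2 of the 49 genes (4.08%), mRpL48 and mRpL55, against 555 of 3589 other promoter summits (15.5%). None of the 98 flanking windows of the group held any. In windows of 100 bp to each side the share was 20.4%, against 25.8% of the other promoter summits. With the 5 leading 6-mers, which are other words, it was 40.8% against 43.0%, so the gap was widest in the narrow windows with 8-mers.

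Of 12 motifs searched on both strands between 250 bases before and 50 after the outer start, the E-box CAGCTG was the one with the widest gap to all promoters. It was in 40 of the 73 promoters (54.8%, interval 42.7% to 66.5%), against 17.7% of all protein-coding promoters. Bound genes had it in 59.2% of cases and unbound ones in 45.8%, and other bound protein-coding genes in 22.9%. It was in 27 of 47 mRpL and 13 of 26 mRpS promoters, against 9.78% of cytosolic ribosomal protein promoters. The other 11 motifs were less far from the background. TATCGATA was in 20.5% of the group and 9.36% of all promoters, with 16.3% of the bound and 29.2% of the unbound genes. TTANNTAA, the core of an element described in nuclear genes of respiration, was in 35.6% against 23.5%, GGTCACAC in 8 of 73 against 7.70%, GTATTTTT in 12.3% against 7.39%, CATCNCTA in 8 of 73 against 6.42% and CACGTG in 6.85% against 4.20%. TATAAA was in 46.6% against 45.8%, GCGCATGC in 1.37% against 1.05%, GTCCG in 13.7% against 19.5% and GAGAGAG in 1.37% against 5.87%. CGTCCGC, a core of the vertebrate HINFP site that contains GTCCG, was in none of the 73 windows and in 1.76% of all.

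Where genes of this group had the E-box, it lay mostly close to the start. Its first base lay between 50 bases before and 44 after the start in 35 of 73 genes (47.9%), against 9.10% of other protein-coding genes. A window from 250 bases before to 44 after the start held one in 40 genes of the group and 2423 others. The nearest was a median of 4 bases after the start in those 40 and 47 bases before it in the others. That window reaches farther upstream than downstream, so evenly spread sites would also have a median upstream. In the 25 bases from the start on, 26.0% of the group and 2.83% of the others held one. Between 50 bases before and 44 after the start, bound genes of the group had it in 53.1% and unbound ones in 37.5% of cases. The positions were counted after the shares above had been seen. The sites below are 30 bases each, with the E-box in capitals. They are examples from genes on 2L, 3L, 3R and X, not ordered by a rule, and do not stand for all sites. Their E-boxes begin between 11 bases before the start, at mRpS2, and 23 after it, at mRpL40. Sites farther out are not shown, as at mRpL23 (28 before), mRpS18C (45 before) and mRpL13 (38 after). The first 6 genes were bound and the last 3, mRpL46, mRpS25 and mRpS33, were not.
mRpL24, chr2L:4945324-4945353 (- strand): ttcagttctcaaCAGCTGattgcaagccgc
mRpS2, chr2L:4850413-4850442 (- strand): aacactacccacCAGCTGtttaccaaaatc
mRpS21, chr3R:13381790-13381819 (- strand): agtgatattcatCAGCTGtttagcagtaca
mRpL47, chr3R:9515873-9515902 (- strand): ttgttattgcttCAGCTGttttgttcggtc
mRpL11, chr3R:14511821-14511850 (+ strand): cagcaataccatCAGCTGttgctgcttctt
mRpL40, chr3R:11407929-11407958 (+ strand): cagcaacaaaaaCAGCTGttcgtacattac
mRpL46, chr3L:1777425-1777454 (+ strand): tgtgccgcaaatCAGCTGttccggctctgg
mRpS25, chrX:14582959-14582988 (- strand): tagccgaccgatCAGCTGttcgcattacac
mRpS33, chr3R:16436566-16436595 (- strand): gcacttggaaatCAGCTGtcgcttgttttt
Beside the E-box, counted on either strand, the base next to it was A in 51.4% of the group and 40.3% of other genes, and the base beyond that was A in 72.9% and 54.8%.

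**Figure D5:**
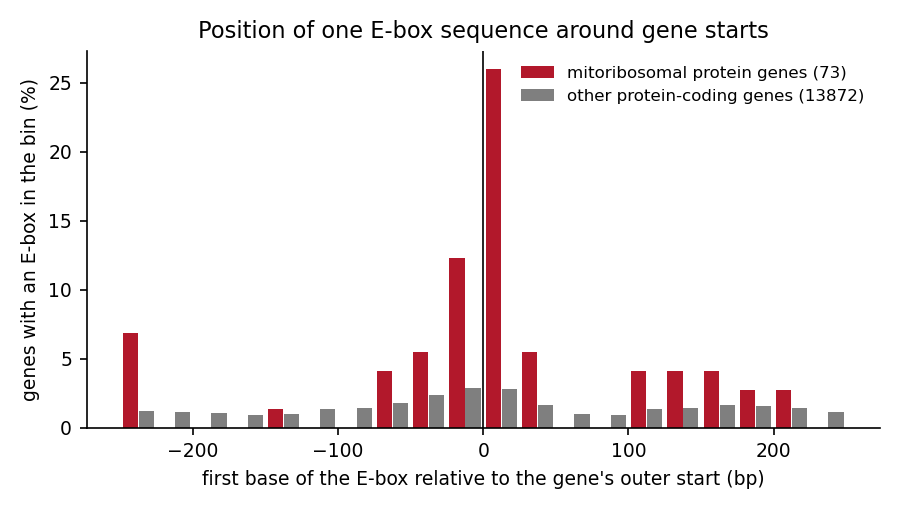
Share of genes (percent, vertical) with the first base of the E-box in each bin of 25 bp around the outer start (bp, horizontal), for 73 mitochondrial ribosomal protein genes (left bar) and 13872 other protein-coding genes (right bar). The bin that starts at the start held 26.0% of the first and 2.83% of the second.

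The E-box was seldom under the summit. Only 4 of the 49 summit windows held CAGCTG (8.16%), against 6.72% of the other promoter summits, and in the 29 bound genes with the E-box the summit lay a median of 106 bp from the nearest one. 

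Other genes of mitochondrial gene expression were bound in part, beside 31.7% of all protein-coding genes. Besides tko, bonsai, the gene of the mitochondrial S15 protein, had an IDR promoter summit, at rank 6588. Of 12 genes for the upkeep and transcription of mitochondrial DNA, 8 were bound (66.7%, interval 34.9% to 90.1%), with mTerf5, of the termination factor family, strongest at rank 1833 and TFAM, which packages mitochondrial DNA, at 5901. Mitochondrial aminoacyl-tRNA synthetases were bound in 7 of 15 cases (46.7%, interval 21.3% to 73.4%), with ProRS-m at rank 1930, and mitochondrial translation factors in 4 of 8 (interval 15.7% to 84.3%), at ranks 5576 to 7270. Both of these intervals include the share of all genes. The factor list had 10 names, of which mEFG2 and mtRF1 matched no symbol of the annotation. Genes whose symbol starts with RpL or RpS, which are mostly cytosolic ribosomal proteins, were bound in 78 of 92 cases (84.8%). The E-box CAGCTG was within the same promoter window in 7 of 15 mitochondrial synthetase genes (46.7%, interval 21.3% to 73.4%). It was in 5 of 12 mitochondrial DNA genes (41.7%, interval 15.2% to 72.3%) and 5 of 8 mitochondrial translation factor genes (62.5%, interval 24.5% to 91.5%). Of all promoters 17.7% held it, a share that the interval of the mitochondrial DNA genes includes.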

How the data were processed

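The deposited files were peak lists of the authors in narrowPeak form on dm6, per the labels and the files' columns. Per the file columns, the authors deposited for each peak a signal value and a −log10 q-value, which was 4.29 for every IDR peak. For the aligner, the peak caller and the IDR settings, nothing was given in the sources used here, and read depth is unknown. A summit is the deposited start plus the summit offset. Starts came from Ensembl release 115 and sequence from RefSeq, on the same assembly, and all 73 symbols were in the RefSeq table. Counts of genes, distances, motifs and 8-mers were computed with Python 3.11.15, numpy 2.4.6 and scipy 1.17.1, after checks on simulated data. The 8-mers were ranked among those in at least 100 summit windows, with 1 added to each count. Named are the 20 strongest genes, those with a summit near 250 bp, all unbound genes and the structural sets. Members and lists were chosen with earlier results of these data known. The distance, the list, the replicate, the overlap, the window and the word length were varied. Genes, not samples, underlie every interval.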

Additional observations from a re-analysis of the deposited data

How the results depend on the processing

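Of 116 recomputed values, 84 stayed within their interval or spread. With 100 bp in place of 250 bp the IDR share was 30.1% for all 73 genes, 34.0% for mRpL and 23.1% for mRpS genes. It was 73.9% for cytosolic ribosomal protein genes and 0 on X, while 18.2% of all protein-coding genes passed. The group's share was then 58.9% in the pooled list and 49.3% in both replicate lists. At 500 and 1000 bp the pooled share was 97.3% and the share in both replicate lists 94.5%. Peak intervals covering a start gave 79.5% and 72.6% for those 2 lists. All protein-coding genes were not counted in the pooled and replicate lists at these settings, so those shares have no background. In the IDR list 36.5% of all protein-coding genes passed at 500 bp and 40.1% at 1000 bp. The strongest 50% of the IDR list gave 39.7% for the group, 40.4% for mRpL genes, 55.4% for cytosolic ribosomal protein genes, 13.3% for mitochondrial synthetases, 0 for translation factors, 25% for mitochondrial DNA genes, a median rank of 1759 and a median distance of 121 bp, by construction of a shorter list (17.2% of all protein-coding genes passed, so that the synthetases and translation factors went from above that share to below it). Counting summits whose nearest start was the gene's own gave 38.4% for the group and 40.4% for mRpL genes. A partner start within 500 bp of the summit gave 87.8% shared promoters. With a head-to-head partner within 300 bp, 93.9% of the group's genes were bound, against 45.0% of those without one. Other protein-coding genes were not counted at either width, so these shares have no background. The width of 300 bp, like the splits by partner and by X, was chosen after seeing the data. Motif windows of 250 bases to each side gave 58.9% for TTANNTAA and 28.8% for GTCCG, and summit windows of 100 bp gave 12.2% for TATCGATA, 10.2% for ATCGATAG and 20.4% for any leading 8-mer, with 40.8% for 6-mers. Without 1 replicate the median rank ranged from 3166 to 3365 and the X share from 9.09% to 18.2%. No paired analysis was possible because the study has 1 group. Unknown depth and 2 replicates limit how firmly a missing peak can be read.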
